A study of Mus musculus with 2 samples.

Results

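The mouse Hox clusters carry 6 microRNA genes besides their protein-coding genes, and the levels of these 6 in the embryonic heart are described here. They were chosen by gene symbol as Mir196b in the Hoxa cluster, Mir10a and Mir196a-1 in Hoxb, Mir615 and Mir196a-2 in Hoxc and Mir10b in Hoxd. They make up 6 of the 1973 microRNA genes in the count tables. Among the 1894 of these that matched the GENCODE M21 annotation, no other lies between the outermost Hox genes of these clusters. RNA under 30 nt was sequenced from whole hearts of mouse embryos of strain B6NCrl at embryonic day 12.5. Both sexes were pooled, the labels name no engineered allele and no treatment, and the 2 biological replicates formed the only group. The libraries held 4478599 and 5279908 sense counts, reads lying in a microRNA gene on its own strand, in replicates 1 and 2. Levels are given as CPM, in which a library's sense counts are scaled to 1000000. Nothing in the labels says how many embryos went into a replicate, and both replicates carry the same donor label. Technical and biological spread between them therefore cannot be told apart.

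Hox genes encode homeodomain transcription factors that set position along the body axis, and within a cluster the genes at the 3′ end act further towards the head than those at the 5′ end. The microRNAs of these clusters are often transcribed with their Hox neighbours and act on some of them in turn. In mouse embryos miR-196 directs cleavage of Hoxb8 mRNA, and in zebrafish miR-10 represses anterior Hox genes. In the developing heart, anterior Hox genes are known from progenitors of the second heart field and from cardiac neural crest.

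The arms known to dominate in the mir-10 and mir-196 hairpins and both arms of Mir615 are shown with the seed, bases 2 to 8, in capitals, because the seeds sort the 6 genes into 3 families. Sequences are from RefSeq on GRCm38.p6, written 5′ to 3′, and all 6 genes had mature sequences there. The Mir196a-1 and Mir196a-2 genes give the same miR-196a-5p.
miR-10a-5p: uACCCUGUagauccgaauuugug
miR-10b-5p: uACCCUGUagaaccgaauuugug
miR-196a-5p: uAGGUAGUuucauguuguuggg
miR-196b-5p: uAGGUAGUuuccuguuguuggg
miR-615-3p: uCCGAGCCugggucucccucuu
miR-615-5p: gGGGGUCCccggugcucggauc

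The miR-10a-5p and miR-10b-5p sequences are identical at 22 of 23 bases and differ by U12A, with positions counted from 1 at the 5′ end and miR-10a given first. The miR-196a-5p and miR-196b-5p sequences are identical at 21 of 22 bases and differ by A12C, miR-196a first. Both differences lie outside the seed. Among the 1679 mouse mature names in the RefSeq table, the miR-10 seed was found in miR-10a-5p and miR-10b-5p alone, the miR-196 seed in miR-196a-5p and miR-196b-5p alone, and neither arm of Mir615 shared its seed with another name. The deposited tables count reads per gene and do not tell the arms of a hairpin apart.

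The tables set multiply mapping reads aside, so a sequence held by several genes is not measured by them. The 2 hairpins that give miR-196a-5p are shown with the stretch they share in capitals, from GENCODE M21 on GRCm38, at chr11:96265164-96265265 for Mir196a-1 and chr15:102973350-102973434 for Mir196a-2, both on the plus strand.
Mir196a-1: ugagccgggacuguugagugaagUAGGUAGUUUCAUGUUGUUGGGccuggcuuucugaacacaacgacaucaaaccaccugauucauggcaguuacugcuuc
Mir196a-2: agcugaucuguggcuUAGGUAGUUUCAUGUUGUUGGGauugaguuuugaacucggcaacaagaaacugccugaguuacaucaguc

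The shared stretch is 22 bases long and is exactly the mature miR-196a-5p. A read of that sequence fits both genes, so the counts of Mir196a-1 and Mir196a-2 do not hold it. Any counts of these genes come from distinguishing reads, of the other arm or reaching past the stretch, and which of these was not tested. The hairpins of Mir10a, Mir10b, Mir196b and Mir615 shared 0 windows of 18 bases with any other microRNA hairpin of GENCODE M21 on either strand. Whether reads with a mismatch moved between the closely similar miR-10a and miR-10b, or between miR-196a and miR-196b, was not tested. Multiply mapping reads made up 27.1% of all reads in replicate 1 and 25.3% in replicate 2.

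By the M21 annotation, Mir10a (ENSMUSG00000065519.1) lies on the plus strand at chr11:96317165-96317274, 0.992 kb before Hoxb4 and 11.0 kb after Hoxb5, and overlaps no other gene of its strand. Mir10b (ENSMUSG00000065500.2 in the tables) lies on the plus strand at chr2:74726070-74726137 in introns of Hoxd4 and of a Hoxd3 transcript. Mir196b (ENSMUSG00000065443.1) lies on the minus strand at chr6:52230081-52230165, 1.03 kb after Hoxa10, and is exonic in 2 noncoding transcripts of Hoxa9 and intronic in another. Mir196a-2 (ENSMUSG00000065488.1 in the tables) lies 1.46 kb after Hoxc10 and 3004 bases before Hoxc9, in an intron of a long noncoding transcript of Hoxc5. Mir196a-1 (ENSMUSG00000065546.1) lies 6.19 kb before Hoxb9 and overlaps no other gene of its strand. Mir615 (ENSMUSG00000076010.1) lies on the plus strand at chr15:103014910-103015001 in an intron of Hoxc5. The mir-10 genes thus stand beside Hoxb4 and Hoxd4, and the mir-196 genes on the 5′ side of Hoxa9, Hoxb9 and Hoxc9.

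**Figure D1:**
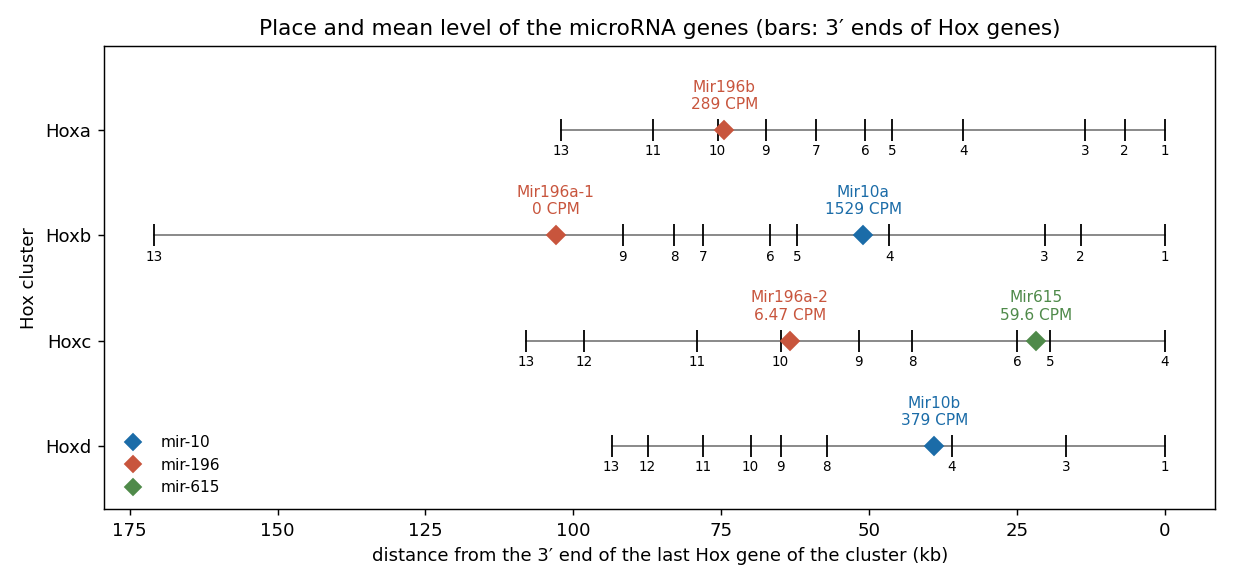
Hox clusters drawn to scale along their own strand, as distance in kb from the 3′ end of the last Hox gene. Vertical bars mark the 3′ ends of the numbered Hox genes, and diamonds mark the microRNA genes, coloured by family, with their mean CPM over the 2 libraries. The highest of the 6, Mir10a at 1529 CPM, and the gene with no count, Mir196a-1, lie in the same cluster. Counts of Mir196a-1 and Mir196a-2 leave out reads of the miR-196a-5p they share.

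The 6 genes together took 0.226% ± 0.0195 (SD, n = 2) of the sense counts, with 0.240% in replicate 1 and 0.212% in replicate 2. The mir-10 genes held most of this. Mir10a alone accounted for 63.1% and 72.6% of the counts of the 6 genes in replicates 1 and 2. By cluster, the Hoxb genes took 0.153% ± 0.00194 (SD, n = 2) of all sense counts, Hoxd 0.0379% ± 0.0122 (SD, n = 2), Hoxa 0.0289% ± 0.00732 (SD, n = 2) and Hoxc 0.00661% ± 0.00187 (SD, n = 2). The Hoxb and Hoxc shares leave out reads of miR-196a-5p, which fit a gene in each of these clusters.

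Mir10a, the mir-10 gene of the Hoxb cluster, had 6784 counts or 1515 CPM in replicate 1 and 8143 counts or 1542 CPM in replicate 2. The values lay close together, at 1529 ± 19.4 CPM (SD, n = 2). It was position 70 of the tables in the order of mean CPM, between Mir101b at 1649 ± 56.0 CPM and Mir28a at 1390 ± 91.4 CPM (SD, n = 2 each).

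Mir10b, the mir-10 gene of the Hoxd cluster, had 2082 counts or 465 CPM in replicate 1 and 1543 counts or 292 CPM in replicate 2. Replicate 1 was the higher library, and the mean of 379 ± 122 CPM (SD, n = 2) placed it at position 111, between Mir708 at 384 ± 9.05 CPM and Mir665 at 378 ± 16.3 CPM (SD, n = 2 each). Mir10a exceeded Mir10b 3.26-fold in replicate 1 (95% counting interval 3.10 to 3.42) and 5.28-fold in replicate 2 (4.997 to 5.58). Mir10a was the higher gene in both libraries, although the size of the ratio, 4.27 ± 1.43 (SD, n = 2), differed between them by more than counting error.

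Mir196b, the mir-196 gene of the Hoxa cluster, had 1524 counts or 340 CPM in replicate 1 and 1250 counts or 237 CPM in replicate 2, a mean of 289 ± 73.2 CPM (SD, n = 2). It stood at position 127, between Mir29a and Mir224. Mir10b exceeded it within each library, by a ratio of 1.37 (1.28 to 1.46) in replicate 1 and 1.23 (1.14 to 1.33) in replicate 2. The values of the 2 genes overlapped across libraries, since Mir196b in replicate 1 lay above Mir10b in replicate 2, so their order rests on the comparison within a library.

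Mir615 of the Hoxc cluster had 331 counts or 73.9 CPM in replicate 1 and 239 counts or 45.3 CPM in replicate 2, a mean of 59.6 ± 20.3 CPM (SD, n = 2). It lay below Mir196b in both libraries, and its neighbours at positions 208 and 210 were Mir490 at 59.9 CPM and Mir670 at 56.3 CPM.

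The mir-196a genes had the fewest counts of the 6. Mir196a-2 had 24 counts or 5.36 CPM in replicate 1 (exact Poisson interval 3.43 to 7.97) and 40 counts or 7.58 CPM in replicate 2 (5.41 to 10.3), a mean of 6.47 ± 1.57 CPM (SD, n = 2) between Mir219a-2 and Mir7018. Mir196a-1 had 0 counts in both libraries. With the limit set at 3 counts, a level below 0.670 CPM could go undetected in replicate 1 and below 0.568 CPM in replicate 2. The upper ends of its exact Poisson intervals were 0.824 and 0.699 CPM in replicates 1 and 2. Counts of both leave out miR-196a-5p itself, as the shared stretch in the hairpins above shows, so the order of Mir196b over Mir196a-2 does not give the order of the mature miR-196b and miR-196a. No use of molecular identifiers is stated, so these intervals and limits reflect counting error alone.

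**Figure D2:**
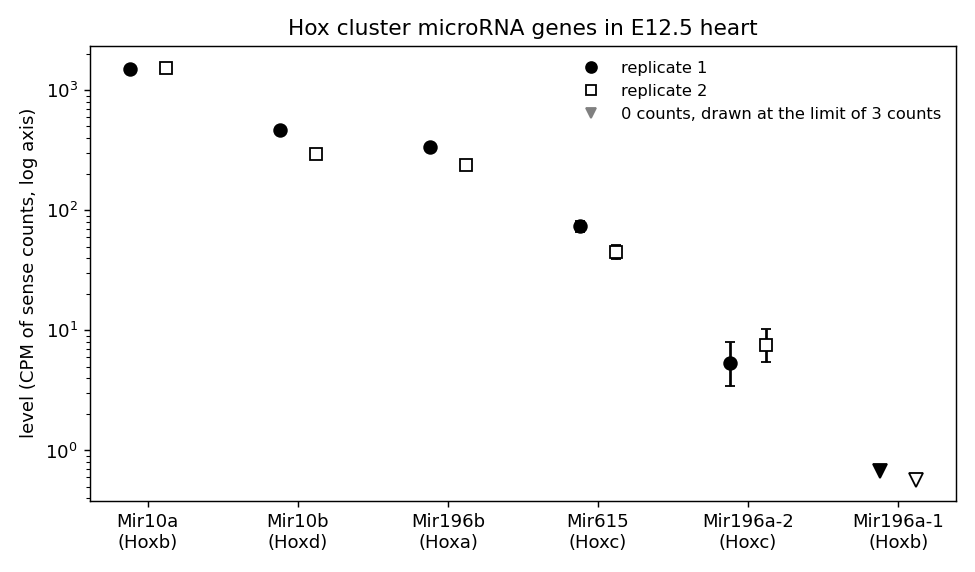
Level of each gene in CPM on a log axis, with replicate 1 as filled circles and replicate 2 as open squares. Bars are exact Poisson 95% intervals, hidden by the symbol where narrow. Triangles mark 0 counts and stand at the limit of 3 counts. Levels run over more than 2 orders of magnitude, from Mir10a at 1515 and 1542 CPM to Mir196a-2 at 5.36 and 7.58 CPM. Counts of Mir196a-1 and Mir196a-2 leave out reads of the miR-196a-5p they share.

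Of the 6 genes, 5 had a count in both libraries and 4 of them lay above the median of all genes so detected, with a median of 289 CPM over the 5 against 8.72 CPM over the 586 such genes of the tables. The fifth, Mir196a-2, lay below that median. In RNA of whole tissue, a microRNA held by few cells and one held at a low level by many cannot be told apart. No gene of the 6 had a count on the strand opposite to it. Both mir-10 genes exceeded every mir-196 gene in both libraries, and the summed counts of the mir-10 genes exceeded those of the mir-196 genes 5.73-fold in replicate 1 and 7.51-fold in replicate 2. The mir-196 counts leave out reads of miR-196a-5p, so these comparisons do not cover that mature sequence.

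Mir615, Mir10b and Mir196b stood higher in replicate 1 than in replicate 2, and Mir10a did not. The log2 ratio of replicate 1 over replicate 2 was 0.71 for Mir615 (95% counting interval 0.46 to 0.95), 0.67 for Mir10b (0.57 to 0.77) and 0.52 for Mir196b (0.41 to 0.63). For Mir10a it was −0.03 (−0.07 to 0.02), and for Mir196a-2, with its few counts, −0.50 (−1.29 to 0.27). The 3 that were higher in replicate 1 lie in 3 different clusters, on chromosomes 15, 2 and 6. With 1 library on each side no test against the spread between replicates can be made, and these intervals compare the libraries, not conditions.

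At a log2 ratio of at least 0.5, these were 3 of the 5 members with at least 10 counts in total, and no member was as far lower in replicate 1, although Mir196a-2 at −0.4995 passed that bound with TMM scaling (−0.52). Among all 444 genes with at least 10 counts, 39 (8.78%) were as far higher in replicate 1 and 47 (10.6%) as far lower. At a log2 ratio of at least 1, 0 members and 11 of the 444 genes (2.48%) were higher in replicate 1. Most such genes had few counts. With at least 100 counts, 6 of 286 genes (2.1%) were as far higher in replicate 1, and Mir615, Mir10b and Mir196b made up 3 of these 6. The other 3 were Mir122, the hepatocyte microRNA, at a log2 ratio of 2.48, Mir6240 at 0.92 and Mir291a, of a cluster known from pluripotent cells, at 0.58. In the order of ratios Mir615 was number 3, Mir10b number 4, Mir196b number 6 and Mir10a number 168 of 286. The median log2 ratio was 0.52 over the 5 members and 0.00381 over the 444 genes. The members were listed together with these ratios already known, so the counts describe the libraries and support nothing further.

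**Figure D3:**
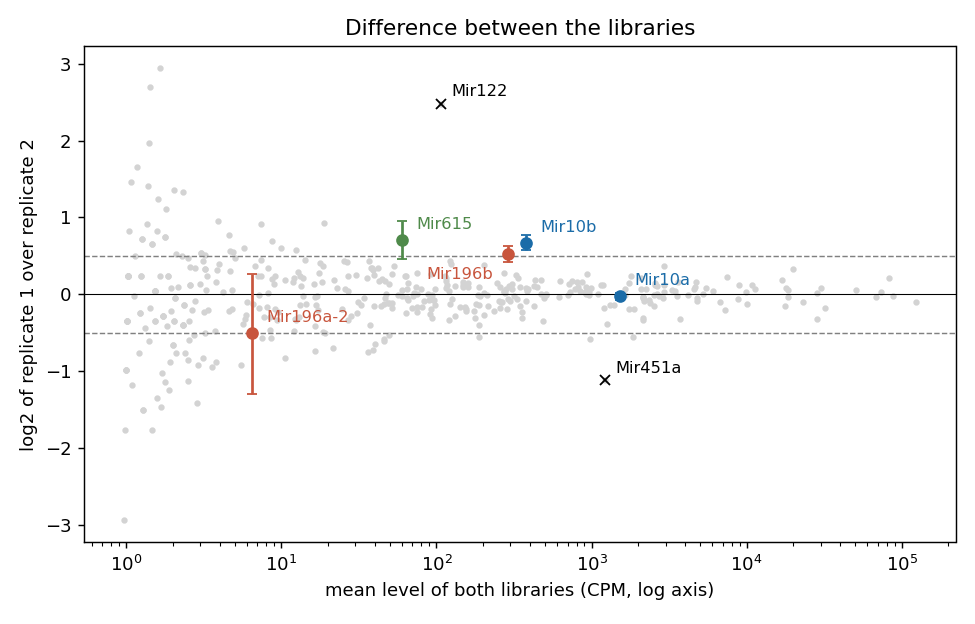
Log2 ratio of replicate 1 over replicate 2 against the mean level in CPM (log axis) for the 444 genes with at least 10 counts in total; dashed lines mark ratios of 0.5 and −0.5, and bars are 95% counting intervals of the 5 members shown. Mir615, Mir10b and Mir196b lie above the upper line where few genes of like level do, Mir10a lies at −0.03, and the crosses mark Mir122 at 2.48 and Mir451a at −1.12.

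The ratios between members within a library restate these differences and add no evidence of their own. Mir10b exceeded Mir615 6.29-fold in replicate 1 (95% counting interval 5.60 to 7.08) and 6.46-fold in replicate 2 (5.63 to 7.43). Mir196b exceeded Mir615 4.604-fold in replicate 1 (4.09 to 5.20) and 5.23-fold in replicate 2 (4.55 to 6.03). For these ratios the intervals of the 2 libraries overlap, and for Mir10a over Mir10b or over Mir196b they do not. Mir10a exceeded Mir196b 4.45-fold in replicate 1 (4.21 to 4.71) and 6.51-fold in replicate 2 (6.14 to 6.92).

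The 3 listed markers of the labelled tissue were high and even. The cardiomyocyte microRNAs Mir208a, Mir208b and Mir499 had a summed level of 63958 CPM in replicate 1, against 61924 CPM in replicate 2. The muscle genes Mir1a-1, Mir133a-1 and Mir133a-2 were not on that list. They had 11, 4 and 2 counts in replicate 1, against 25, 13 and 8 in replicate 2. As numbered copies they leave out reads that fit several genes. Among markers of other tissues, all 5 liver and gut genes were detected, with a sum of 586 CPM in replicate 1, against 430 CPM in replicate 2, with Mir122 at 181 and 32.4 CPM. The other 4 of that list had log2 ratios of −0.39 to 0.17. The 3 erythroid genes had a sum of 986 CPM in replicate 1, against 1858 CPM in replicate 2. Mir451a carried that difference, at a log2 ratio of −1.12, while Mir144 stood at 0.16 and Mir486 at 0.37. The 10 epithelial genes summed to 1447 and 1471 CPM in replicates 1 and 2, with log2 ratios from −0.74 for Mir141 to 0.18 for Mir429. The 12 neural genes found summed to 167 and 150 CPM, with Mir9-2, Mir124a-2 and Mir124a-3 at 0 in both. Neural genes numbered as copies leave out reads that fit several genes, so neither the sum nor a 0 gives the level of the mature microRNAs. The 2 skeletal muscle genes summed to 34.6 and 28.4 CPM. The 5 smooth muscle and mesenchyme genes summed to 92338 and 93962 CPM in replicates 1 and 2. Mir143, at 87662 and 89222 CPM, held most of that sum. Log2 ratios of the 5 ran from −0.61 for Mir199a-2 to 0.04 for Mir214. Mir199a-1, Mir199a-2, Mir194-1 and Mir194-2 are also numbered copies. Their counts and ratios leave out reads that fit several genes. The endothelial Mir126a stood at 67024 and 68770 CPM. No list for body-wall or limb tissue was used, and the part of any of these tissues in the difference of Mir615, Mir10b and Mir196b was not tested.

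Outside the Hox clusters, miR-99 and miR-100 belong to the same superfamily as miR-10. They are shown because they carry much of the miR-10 sequence with a different seed. Capitals mark the longest stretch that miR-100-5p shares with miR-10a-5p.
miR-10a-5p: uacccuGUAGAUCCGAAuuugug
miR-100-5p: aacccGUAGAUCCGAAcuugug

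With base 6 of miR-10a-5p left out, 20 of 22 bases of miR-100-5p were identical, and 19 of 22 of miR-99a-5p. For miR-125a-5p, at best 9 of 22 bases were identical with 1 base of miR-10a-5p left out. The longest stretch these 2 shared was 5 bases. Mir10a and Mir10b together averaged 1907 ± 103 CPM, against 73204 ± 1218 CPM for Mir99a, 17829 ± 667 CPM for Mir99b and 6038 ± 142 CPM for Mir100 (SD, n = 2 each). Of the mir-125 genes listed with them, Mir125a stood at 2512 ± 191 CPM, Mir125b-2 at 616 ± 10.1 CPM and Mir125b-1 at 315 ± 3.87 CPM (SD, n = 2 each). Mir10a thus ranked below Mir99a, Mir99b, Mir100 and Mir125a in both libraries, and Mir10b below Mir125b-2 in both. Mir10b and Mir125b-1 changed order, with Mir10b at 465 CPM above Mir125b-1 at 312 CPM in replicate 1 and at 292 CPM below it at 318 CPM in replicate 2. The 6 genes outside the Hox clusters had log2 ratios between the libraries from −0.16 to 0.08. Mir125b-1 and Mir125b-2 give a common mature miR-125b-5p, so their counts leave out reads that fit both.

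The miR-196 seed is also found in let-7, which promotes maturation of tissues, but shifted by a base. Capitals mark the longest shared stretch, bases 2 to 8 of miR-196b-5p and bases 3 to 9 of let-7g-5p.
miR-196b-5p: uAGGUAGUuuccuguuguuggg
let-7g-5p: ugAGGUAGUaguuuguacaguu

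The mir-196 genes together averaged 295 ± 71.6 CPM, against 43793 ± 4278 CPM for the 10 of 12 listed let-7 family genes that were found by symbol, of which Mirlet7g was highest at 19813 ± 3133 CPM (SD, n = 2 each). Mir196b lay between Mirlet7b at 423 ± 23.2 CPM and Mirlet7f-2 at 272 ± 3.58 CPM by its mean, although its value of 237 CPM in replicate 2 was below that of Mirlet7f-2 at 269 CPM. Both sums, and the levels of numbered copies such as Mirlet7f-2, leave out reads of mature sequences that several genes share. The place of Mir196b among the let-7 genes therefore does not give its place among the mature let-7 microRNAs.

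**Figure D4:**
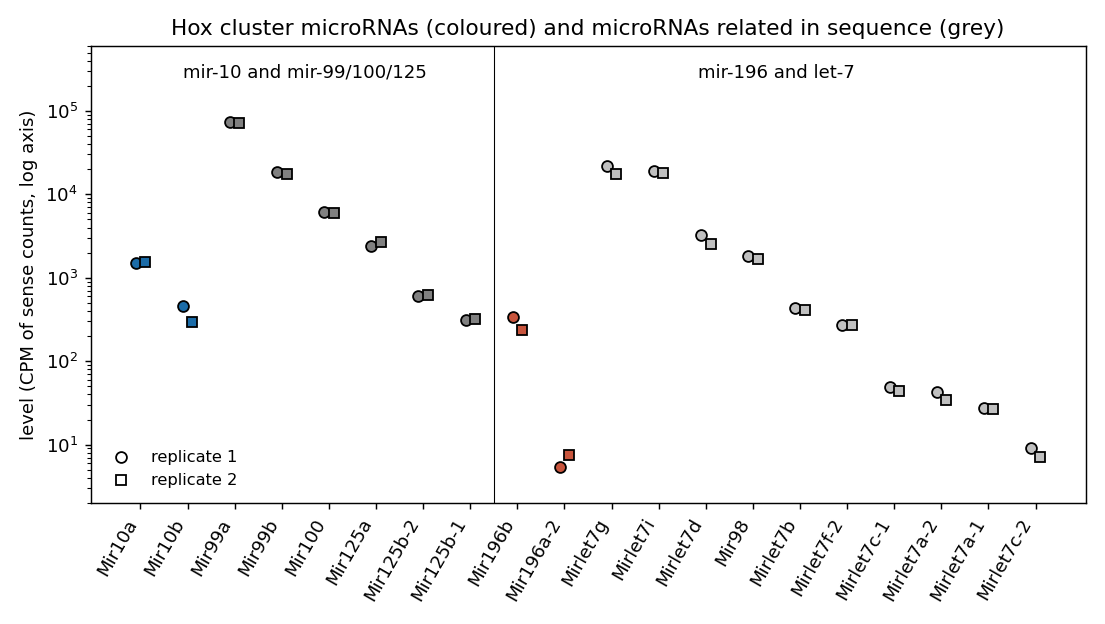
CPM on a log axis in replicate 1 (circles) and replicate 2 (squares) for the mir-10 and mir-196 genes, in colour, and the genes listed with each, in grey. Mir196a-1 with 0 counts is not drawn. Mir10a stands at 1515 and 1542 CPM, below Mir99a, Mir99b, Mir100 and Mir125a, and Mir196b at 340 and 237 CPM, with a mean below those of 5 of the 10 let-7 family genes. Counts of genes that share a mature sequence with another gene leave out the shared reads.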

How the data were processed

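Small RNA from 2 heart libraries was analysed. The authors deposited raw read counts per microRNA gene, 1 table per library with no pooling, on mm10 with annotation M4, per the descriptions deposited with the tables. Which aligner and counter they used is not given in the sources used here. The 3 columns have no names, and their meaning (without regard to strand, sense, opposite strand) was inferred from their sums. Rows that name no gene (51.5% and 50.2% of all reads, by the sense column, in replicates 1 and 2) were kept out of all totals.

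Gene names and bounds were taken from GENCODE M21, which is on GRCm38 (mm10); 1894 of 1973 rows matched. The tables list an earlier identifier version of Mir10b and Mir196a-2 than M21, so their annotated bounds may have differed slightly. CPM is the count scaled to 1000000 sense counts per library. Counts were not divided by hairpin length, since a mature microRNA gives 1 read, and ligation differs between sequences, so ratios between genes describe counts. Intervals are exact Poisson (levels) and exact Clopper-Pearson (ratios), at 95%. Python 3.11.15, scipy 1.17.1, edgeR 4.0.16 (TMM) and DESeq2 1.42.0 (size factors) were used, the latter pair for scaling alternatives only. The ratio code was tested on simulated data. With 1 group no test between conditions was made. Named genes were the 6 members, their neighbours in the order of mean CPM, the 5 highest ratios of replicate 1 over replicate 2 among genes of at least 100 counts, and the listed related and marker genes. Members, lists, thresholds and alternatives were chosen with earlier results of these data known.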

Additional observations from a re-analysis of the deposited data

Results flagged for a closer look

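Reads that fit several places averaged 26.2% of all reads over the 2 libraries. They stood apart because they lie outside the counts used for every gene and far above the limit of a count of 0. Any reads of miR-196a-5p, which 2 Hox cluster genes share, would be among them, and how many there are cannot be read from the tables. With 2 libraries, no check for a single outlying library was made.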

How the results depend on the processing

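No paired analysis was possible because the design has 1 group. The log2 ratios of Mir615, Mir10b, Mir196b and Mir10a kept their sign and their side of 0.5 under TMM, DESeq2 size factors, the sum without the 10 most abundant genes, counts without regard to strand and a pseudocount of 1 CPM. Mir196b lay closest to the threshold, at 0.50 under TMM. Mir196a-2, with 64 counts in all, passed −0.5 under TMM (−0.52), DESeq2 size factors (−0.51), the sum without the top 10 genes (−0.52) and counts without regard to strand (−0.51), so that 1 member was lower in replicate 1 under TMM, DESeq2 and unstranded counts, against 0.

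Genes higher in replicate 1 numbered 6 with a minimum of 100 counts, 76 with a count in both libraries and 11 at a log2 ratio of 1, against 39. Genes lower in replicate 1 numbered 14, 93 and 14 under these settings, against 47. At a log2 ratio of 1, 0 members were higher in replicate 1, against 3.

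Scaled to 1000000 of all reads, Mir10a stood at 751, Mir10b at 185, Mir196b at 141, Mir615 at 29.2 and Mir196a-2 at 3.19. Counts without regard to strand were identical for the members, and their larger sum put Mir10a at 1461 CPM and the Hoxb share at 0.146%. Of all reads, the 6 genes took 0.111%, the Hoxa genes 0.0141%, Hoxb 0.0751%, Hoxc 0.00324% and Hoxd 0.0185%. Without the top 10 genes in the sum these shares were 0.572%, 0.0729%, 0.387%, 0.0167% and 0.0956%. The order of the members was the same in each library. Leaving out either replicate gave the single-library values of the report. Few counts make the interval of Mir196a-2 wide, and its counts and those of Mir196a-1 also leave out the mature sequence they share.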
